A study of Mus musculus with 12 samples.

Results

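On a gene-expression array, a probe set is the group of short probes whose brightness is summarised into 1 value per sample. Most probe sets answer to 1 gene, but some match several near-identical genes, a gene and its pseudogenes, overlapping genes, or a small RNA inside the transcript of its host gene. The probe sets described here are all those whose annotation lists at least 2 gene symbols. There were 1621 of them among 35556 on the array, or 4.56%, against 21789 with 1 symbol and 12146 with none. Such a probe set gives 1 value for its whole list of genes, and how much each gene adds to it is not known. Each one is therefore named below by all its symbols. Where the list is long, the first 3 symbols and the number of the others are given.

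The samples were mouse N2A cells, a neuroblastoma line that is used as a model of neuronal progenitors and that extends neurites in response to retinoic acid (RA). Dali is a long non-coding RNA of the developing brain, and the study asked which transcripts depend on it. The 12 arrays formed 4 groups of 3. Control cells carried a stable non-targeting vector and Dali knockdown (KD) cells a stable construct against Dali, and each kind of cell was measured while proliferating in 10% serum and after 72 h in 2% serum with 20 µM all-trans RA. The effect of RA therefore cannot be told apart from that of the lower serum. Stable cells were obtained by hygromycin selection and expanded as individual clones, but whether the arrays within a group stand for different clones or cultures is not in the labels. A difference between KD and control cells may therefore include differences between clones, and the p-values cover the spread of these samples alone, which may be technical. In bulk RNA, fewer cells of a type and less RNA per cell cannot be told apart.

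Gene families arise by repeated duplication, and young copies often sit side by side and keep nearly the same sequence. Olfactory and vomeronasal receptors, immunoglobulin segments, histones and the ampliconic genes of the sex chromosomes are textbook cases. Ribosomal protein genes have instead left processed pseudogenes across many chromosomes. Small nucleolar RNAs (snoRNAs, Snord and Snora), which guide the chemical modification of other RNAs, are mostly cut from introns of host genes, and microRNAs are cut from longer precursors and repress target RNAs through their seed, bases 2 to 8.

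The sequences of microRNAs on called lists are given here to describe the genes. The probes were not compared with them, so what a probe set can separate was not tested. Members named 68 microRNA symbols, of which 37 had a mature sequence in the RefSeq annotation of GRCm38.p6, giving 52 distinct sequences with 47 distinct seeds. They are printed 5′ to 3′ with the seed in capitals. Mir344 and Mir344-2, which shared probe sets that changed with RA, encode the same mature arms: the 3p arm lies at chr7:61877782-61877804 and chr7:61940036-61940058 and the 5p arm at chr7:61877819-61877844 and chr7:61940073-61940098, all on the minus strand, and 0 bases differed between the copies.
mmu-miR-344-3p: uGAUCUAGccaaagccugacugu
mmu-miR-344-5p: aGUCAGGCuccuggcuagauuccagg
The other called lists with a printed microRNA join it to a longer gene. They are Mir24-1 with Aopep (chr13:63301251-63301272, plus strand), Mir29c with A330023F24Rik (chr1:195037600-195037621, plus strand), Mir703 with Eef1a1 and D630045J12Rik (chr5:98475616-98475636, minus strand) and Mir682 with Rpl37a (chr13:75645119-75645139, plus strand).
mmu-miR-24-3p: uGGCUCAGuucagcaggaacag
mmu-miR-29c-3p: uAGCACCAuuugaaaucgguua
mmu-miR-703: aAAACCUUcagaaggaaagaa
mmu-miR-682: cUGCAGUCacagugaagucug
The largest microRNA lists, Mir467a-9, Mir467a-7, Mir467a-10 and 9 others and Mir669p-1, Mir669p-2, Mir669a-7 and 11 others, are given by name only.

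The 1621 probe sets carried 798 different symbol lists, of which 511 belonged to 1 probe set each. The list of Gm26504, Snord116l1 and Snord116l2 was held by 24 probe sets, more than any other. Of the members, 725 carried 2 symbols, 294 carried 3 and 157 carried 10 or more, up to 20 symbols on 4 probe sets. In 811 members at least 1 symbol was a predicted or unnamed locus. There were 93 sets of members with identical values on every array, covering 259 members, so that the 1621 rows held 1455 distinct signals. Identical rows count once wherever signals are given.

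Sorted by their symbols, the members fell into 28 classes, 22 of them gene families with 733 members. The largest families were the X, Y and germline genes with 168 members, ribosomal proteins with 149, olfactory receptors with 98, vomeronasal receptors with 66, immunoglobulin and T cell receptor segments with 58, histones with 46 and zinc finger genes with 33. Outside the families, 220 members joined named genes unlike each other (82 of these held a ribosomal protein), 219 joined other paralogues, 195 joined 1 named gene to predicted loci and 136 held predicted loci alone. A further 68 joined a small RNA to another gene and 50 held small RNAs alone.

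The genes on a list were often neighbours, though not in most of the 1621 members. In 721 members all placed genes lay within 1 Mb of each other, in 345 on the same chromosome over a longer span and in 536 on several chromosomes, while 19 had under 2 placed genes. Olfactory receptor lists were local, with 88 of 98 within 1 Mb, and immunoglobulin and T cell receptor lists were too, with 47 of 58. Ribosomal protein lists were spread, with 148 of 149 on several chromosomes.

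How alike the promoters on a list were varied widely. Over 485 lists with at least 2 promoters in RefSeq (GRCm38.p6, 300 bases from 250 before to 50 after the start), the median identity of the best ungapped alignment was 37.3%, against 32.0% for neighbouring genes. It was at least 60% in 149 lists and at least 90% in 76. The median was 63.0% for X, Y and germline families, 51.8% for zinc finger genes and 51.5% for vomeronasal receptors, against 32.5% for histones and for ribosomal proteins.

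The arrays were alike in scale, with medians from 7.15 to 7.21 on the log2 scale, and correlations of 0.992 to 0.996 within groups and 0.986 to 0.993 between them. Of 12 neuronal and sympathoadrenal markers, 10 had a probe set, with a median at the 81.7th percentile of signal, from Nefm at 17.5 to Stmn2 at 97.9. The median percentile was 48.1 for fibroblast, 39.5 for glial, 37.6 for immune and 31.6 for endothelial markers. No probe set was assigned to Dali, so its knockdown could not be checked on these arrays.

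A probe set was called where limma gave a Benjamini-Hochberg adjusted p under 0.05 over all 35556 probe sets and a difference of at least 1.3-fold. Of the 1621 shared probe sets, 156 (126 distinct signals) were called in at least 1 of 5 comparisons and 1465 in none. KD against control in proliferating cells called 48 members, 19 higher and 29 lower, where 3.52% of all probe sets were called and 2.96% of the members. Without control replicate 1 there were 31 higher and 29 lower. After RA, KD against control called 101 members, 54 higher and 47 lower, where 5.35% of all probe sets were called and 6.23% of the members; with identical rows counted once there were 71, 30 higher and 41 lower. RA against proliferating called 35 members in control cells, 17 higher and 18 lower, against 3.94% of all probe sets and 2.16% of the members. In KD cells RA called 57 members, 46 higher and 11 lower, against 4.75% of all probe sets and 3.52% of the members, and 33 signals once identical rows were merged, 22 higher and 11 lower. The split was 28 and 15 without KD replicate 1 after RA, 29 and 16 without KD replicate 2 after RA, 41 and 19 without KD replicate 1 while proliferating, and 27 and 19 with arrays centred on their medians.

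The share of members called was thus below that of all probe sets in 3 of these 4 comparisons and above it for KD after RA, where it was 4.88% with identical rows counted once. The interaction, which compares the RA response of the 2 kinds of cell, called 5 members, where 0.281% of all probe sets were called. The members' median log2 difference was -0.0247 for KD in proliferating cells, -0.0169 for KD after RA, -0.00887 for RA in control cells and 0.000748 for RA in KD cells, beside -0.0104, -0.00903, -0.00323 and -0.00193 over all probe sets. The calls were concentrated in a few classes, as the plot of calls by class shows, and are described class by class below.

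**Figure D1:**
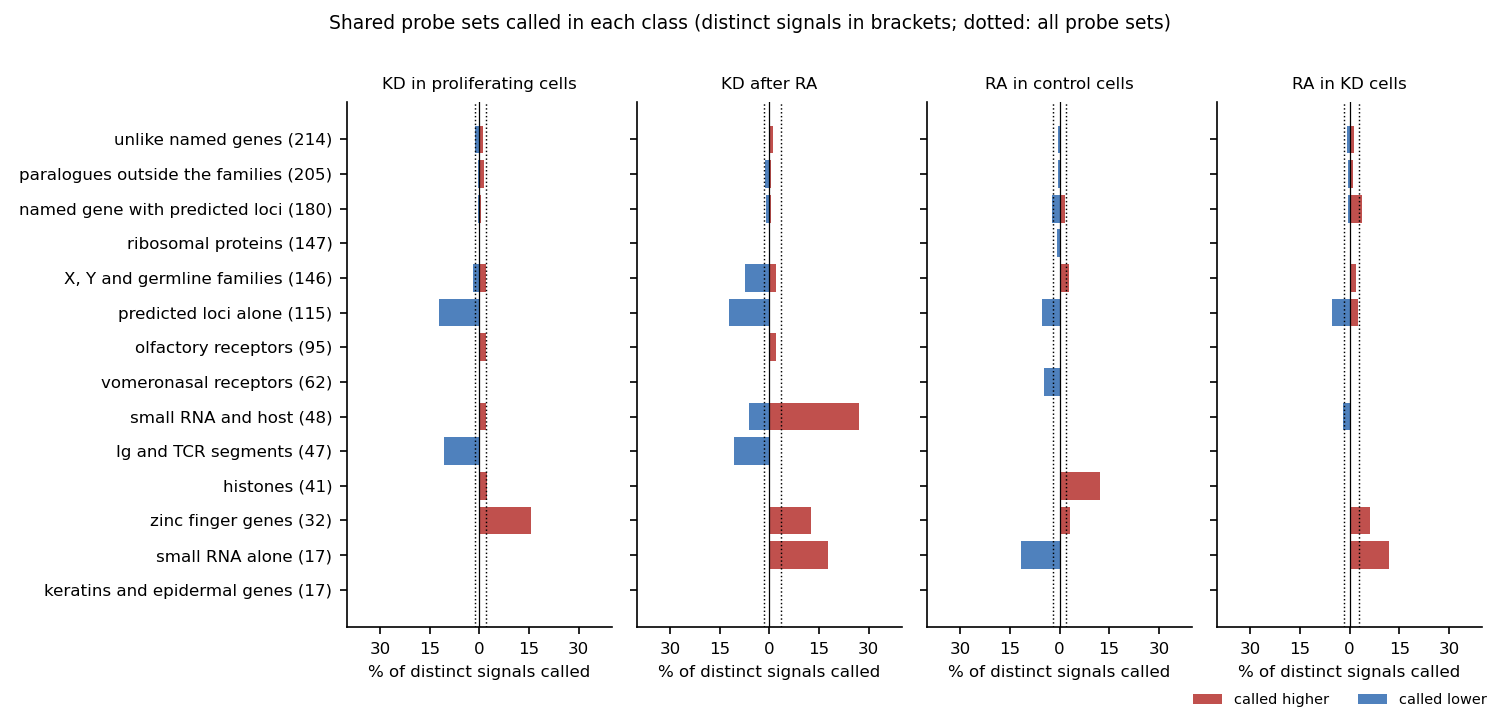
Percentage of distinct signals called higher (red, to the right) and lower (blue, to the left) in each class with at least 17 signals, in the 4 comparisons; the number of signals stands in brackets and dotted lines mark the percentage of all probe sets called in that direction. Small RNA classes stood out after RA in KD cells, predicted loci and immunoglobulin segments among the lower calls of both KD comparisons, and histones among the higher calls of RA in control cells (5 of 41 signals).

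Predicted loci without a named gene held the strongest knockdown differences. Of 136 members, 15 were called lower and 0 higher in KD cells in each state, where 1.45% of all probe sets were called lower in proliferating cells and 1.77% after RA. Both times the calls came from the same pair of groups of lists, 1 around 1700024B05Rik and 1 around Gm17026. The median over the class was -0.0199 in proliferating cells and -0.00422 after RA, so the rest of the class was centred near 0.

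The list of 1700024B05Rik, 1700049E17Rik2, 1700049E17Rik1 and 2 others gave log2 signals of 7.92, 7.86 and 7.76 in control cells and 6.36, 6.56 and 6.55 in KD cells. After RA it gave 8.23, 8.09 and 8.04 in control cells and 6.71, 6.77 and 6.47 in KD cells. Every KD array lay more than 1 log2 unit below every control array of its state. KD lowered the signal by 2.56-fold in proliferating cells (log2 difference -1.35, SE 0.089, limma adjusted p = 7.18e-06) and by 2.76-fold after RA (log2 difference -1.47, SE 0.089, adjusted p = 2.54e-06). RA itself changed it by 0.27 in control and 0.16 in KD cells, neither called. In RefSeq order, 10 protein-coding genes on either side of the list, each with a probe set of its own, were set beside it. These 20 genes had a median KD difference of 0.0 in proliferating cells and -0.01 after RA, with 1 called lower in each state.

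The 6 other probe sets around 1700024B05Rik fell by 1.12 to 1.17 (log2) while proliferating and by 1.09 to 1.34 after RA. The second group, Gm17026, Gm10375 and Gm10377 with 1 or 2 further loci, fell by 0.74 to 1.05 in proliferating cells and by 0.72 to 0.81 after RA on its 8 probe sets. Its lowest example in proliferating cells went from 7.82, 7.81 and 7.64 to 6.67, 6.85 and 6.61, and after RA from 7.74, 7.75 and 7.47 to 6.78, 6.9 and 6.98. The symbols of these lists are predicted transcripts, and no role is given for them here.

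Immunoglobulin kappa lists fell in the same way. Igkc is the constant segment of the kappa light chain and the Igkv4 symbols are variable segments that B cells join to it, so these genes belong to another cell type than the one studied. The probe set of Igkv4-59, Igkv4-70, Igkc and Igkv4-80 read 7.79, 7.76 and 7.83 in control cells and 7.17, 7.09 and 7.07 in KD cells. After RA it read 8.04, 8.17 and 7.97 in control cells and 7.25, 7.14 and 7.16 in KD cells. The groups did not overlap in either state, and the differences were -0.68 (SE 0.057, adjusted p = 3.62e-05) and -0.88 (SE 0.057, adjusted p = 4.41e-06).

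Of 58 members of the immunoglobulin and T cell receptor class, 5 were called lower and 0 higher in each state, where 1.45% of all probe sets were called lower in proliferating cells and 1.77% after RA. RA gave 0 calls in the class in either kind of cell, although in control cells the same list of Igkc and 3 variable segments had a difference of 0.27 (adjusted p = 0.0115), under the fold threshold. The class median was -0.0496 in proliferating cells and -0.0411 after RA. The 4 immune cell markers (Ptprc, Cd68, Csf1r and Cd3e) lay between the 18.0th and 48.5th percentile of signal.

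Ssxb genes are mouse relatives of SSX, a cancer-testis antigen family of the X chromosome. The list of Ssxb2, Ssxb9, Ssxb10 and 2 others read 7.56, 7.29 and 7.36 in control cells against 8.19, 8.06 and 8.12 in KD cells, and 7.48, 7.47 and 7.35 against 8.45, 8.26 and 8.26 after RA. KD arrays were higher in both states, by 0.71 (SE 0.08, adjusted p = 0.000277) and 0.89 (SE 0.08, adjusted p = 5.78e-05). Ssxb3 and Ssxb2 also had a probe set of their own, with differences of 0.67 and 0.41 in proliferating cells and 0.85 and 0.36 after RA. A further pair of Ssxb probe sets, Ssxb6, Ssxb8, Gm6592 and 8 others, rose by 0.49 and 0.53, and by 0.63 and 0.66 after RA.

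Magea genes, another X-linked cancer-testis family, moved the other way. Magea8 and Magea3 shared a probe set that read 5.69, 5.56 and 5.68 in control cells and 4.84, 5.11 and 4.84 in KD cells, and 5.95, 5.84 and 5.91 against 5.09, 5.05 and 5.16 after RA. It fell by 0.71 (SE 0.075, adjusted p = 0.000203) and by 0.80 (SE 0.075, adjusted p = 7.58e-05), and the groups did not overlap. A probe set of Magea3 alone fell by 0.53 and 0.63. Over the class of 168 members, 3 were called higher and 3 lower in proliferating cells, where 2.07% of all probe sets were called higher and 1.45% lower, so that these shares were near those of the array. After RA 3 were called higher and 16 lower (11 signals lower once identical rows were merged), where 3.58% and 1.77% of all probe sets were. The lower calls after RA also took in Btbd35f21, Btbd35f23, Btbd35f27 and 9 others, with differences of -0.44 and -0.42, and Gm15023, Gm7903, AV320801 and 2 others, with -0.40 and -0.43.

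Nlrp4e and Nlrp4c, members of a family of NOD-like receptor genes expressed in oocytes, shared a probe set that read 7.71, 7.73 and 7.49 in control and 8.37, 8.33 and 8.21 in KD cells. After RA the values were 7.95, 7.64 and 7.68 against 8.47, 8.4 and 8.33. The signal rose by 0.66 (SE 0.092, adjusted p = 0.00108) and by 0.64 (SE 0.092, adjusted p = 0.0011). The groups did not overlap, which the choice of this list required in proliferating cells. The probe set of Nlrp4e alone differed by 1.69 and 1.75, and that of Nlrp4c alone by 0.23 and 0.07. The shared value thus lay between those of its genes.

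**Figure D2:**
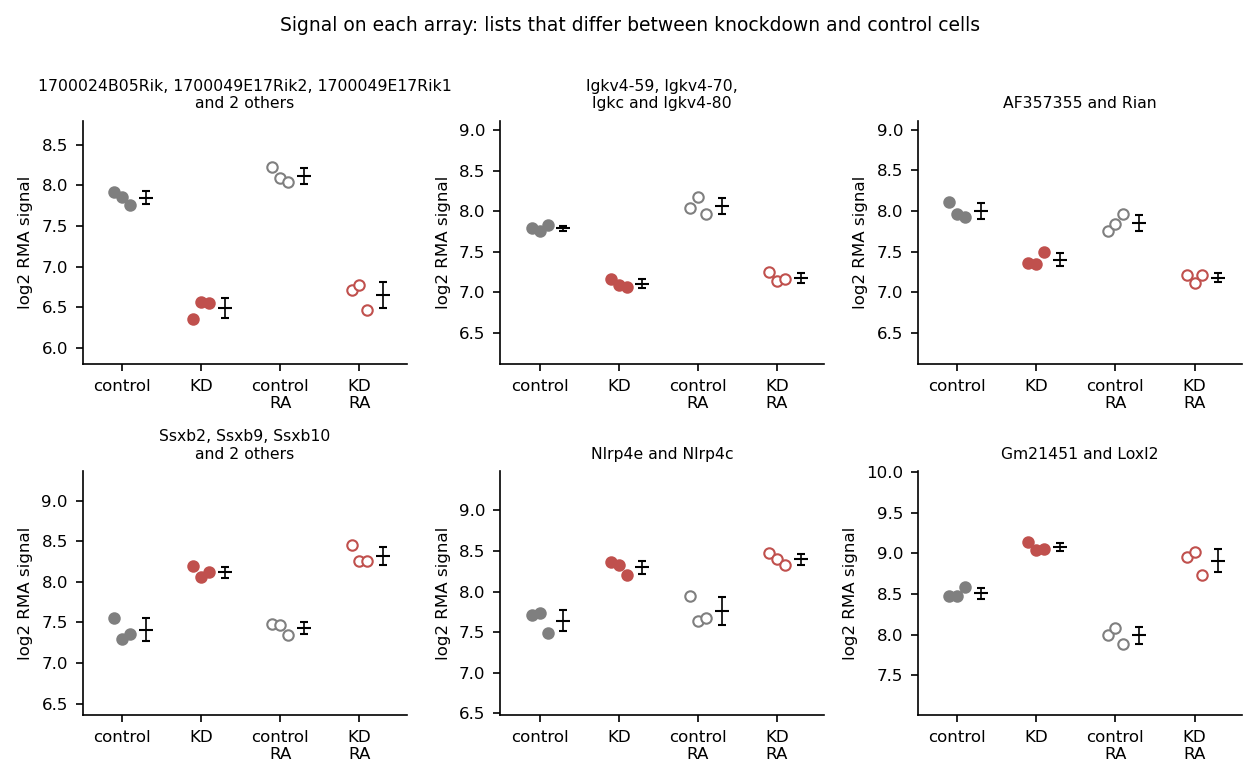
Log2 RMA signal on each of the 12 arrays for 6 shared probe sets called in both KD comparisons (grey, control; red, KD; filled, proliferating; open, after RA), with the group mean and SD (n = 3) beside the points. KD arrays lay below the control arrays of the same state in the upper row and above them in the lower row, for example at 6.36 to 6.56 against 7.76 to 7.92 for the 1700024B05Rik list.

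Zinc finger genes, a large family of DNA-binding proteins many of which repress transposable elements, leaned towards higher signal in KD cells. Of 33 members, 5 were called higher and 0 lower in proliferating cells, where 2.07% of all probe sets were called higher, and 4 higher and 0 lower after RA, where 3.58% were. The class median was 0.139 in proliferating cells and 0.101 after RA, and 31 of 32 distinct signals lay above 0 in proliferating cells and 28 after RA. The count after RA was 2 without control replicate 3 or KD replicate 2 after RA, and 2 with arrays centred on their medians or quantile normalised again.

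EU599041, Gm2381, Zfp975 and Zfp976 read 5.72, 5.73 and 5.71 in control cells and 6.33, 6.3 and 6.37 in KD cells, a rise of 0.61 (SE 0.067, adjusted p = 0.000251). After RA the difference was 0.46. Gm10509 and Zfp983 read 8.35, 8.38 and 8.32 against 8.93, 8.85 and 8.85, a rise of 0.53 (SE 0.051, adjusted p = 0.000109), and 0.45 after RA. Zfp983 alone rose by 0.62 and 0.43 on its own probe set. The 20 protein-coding genes around it had a median KD difference of 0.18 in proliferating cells and 0.17 after RA. Of these, 2 were called higher in proliferating cells and 0 after RA. Around the EU599041 list the medians were -0.02 and -0.04. Zfp808, Gm5141 and Zfp934 differed in another comparison: RA raised them in KD cells by 0.59 (SE 0.1, adjusted p = 0.0024), from 8.06, 8.18 and 8.23 to 8.62, 8.96 and 8.64, while in control cells the difference was 0.25.

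Small RNA lists made up most of the higher calls in KD cells after RA. Among the 50 members that hold small RNAs alone, 24 were called higher and 0 lower, but these were only 3 distinct signals out of 17. Of all probe sets 3.58% were called higher, and of those without a symbol 6.9%. Mir467a-9, Mir467a-7, Mir467a-10 and 9 others, a microRNA cluster inside the Sfmbt2 gene in the RefSeq annotation, gave 9 rows with identical values. They read 6.32, 6.33 and 6.2 in control cells, 6.53, 6.53 and 6.45 in KD cells, 6.34, 6.34 and 6.32 in control cells after RA, and 7.02, 7.07 and 6.87 in KD cells after RA.

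The KD cells after RA stood above the 3 other groups on every array. KD raised the Mir467a signal by 0.66 after RA (SE 0.058, adjusted p = 5.15e-05) and by 0.22 in proliferating cells (SE 0.058, adjusted p = 0.0312), the latter under the fold threshold. RA raised it by 0.49 in KD cells (SE 0.058, adjusted p = 0.000314) and the difference was 0.05 in control cells; the interaction of 0.44 missed the threshold (adjusted p = 0.0592). Sfmbt2, a Polycomb-type repressor, differed by 0.26 and 0.22 between KD and control cells on its own probe set, and by 0.05 and 0.01 with RA.

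The 13 identical rows of Mir669p-1, Mir669p-2, Mir669a-7 and 11 others, from the same cluster, rose by 0.64 in KD cells after RA (SE 0.1, adjusted p = 0.00238), from 4.74, 4.61 and 4.8 to 5.38, 5.44 and 5.24. RA raised them by 0.39 in KD cells (adjusted p = 0.0285). Snord1c and Snord1b read 6.57, 6.19 and 6.15 in control and 7.25, 6.97 and 6.93 in KD cells after RA. The rise was 0.75 (SE 0.18, adjusted p = 0.0159), beside 0.15 for Snhg16 alone, which spans Snord1c in RefSeq. In proliferating cells the arrays of Snord1c and Snord1b overlapped, at 6.54, 6.87 and 6.85 against 6.41, 6.75 and 7.09. Mir344-2 and Mir344 behaved otherwise: RA lowered their pair of probe sets by 0.46 and 0.48 in control cells, from 9.02, 8.95 and 8.84 to 8.51, 8.44 and 8.46 on the first.

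The calls of small RNAs alone in KD cells after RA numbered 22 to 33 on leaving out any 1 array, but other counts of the class moved more. Without KD replicate 2 or 3, or KD replicate 1 or 2 after RA, 9 members of the class were called higher with RA in KD cells where 22 were called on all arrays. With the arrays centred on their medians or quantile normalised again, 9 were called too. Without the first control array, 13 were called higher in proliferating KD cells where 0 were called on all arrays. Across the 65 small RNA signals, the first control array after RA lay above its group mean on 49 and the third on 17, and the part of this spread in the result was not tested.

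Lists of a small RNA with another gene gave 16 higher and 3 lower calls among 68 members in KD cells after RA (13 and 3 signals), and 1 higher and 0 lower in proliferating cells. Of all probe sets, 3.58% were called higher and 1.77% lower after RA, and 2.07% higher in proliferating cells. The count of higher calls was 10, 8 and 7 without control replicate 1, 2 or 3 after RA, and 9 and 10 without KD replicate 2 or 3 after RA. Without control replicate 3 after RA, 1 lower call was left. For 8 of these lists another gene of the list also had a probe set of its own, so the 2 could be set side by side. That gene did not always hold the small RNA.

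Snord14d, Snord14c and Hspa8 is the clearest case. Hspa8 encodes the constitutive heat shock protein of the HSP70 family and carries snoRNAs in its introns. The shared probe set read 10.68, 10.61 and 10.55 in control cells and 10.86, 10.84 and 10.85 in KD cells. After RA it read 10.49, 10.34 and 10.4 in control cells and 11.07, 11.21 and 11.15 in KD cells, so the groups did not overlap in either state and the gap was wider after RA. The rise after RA was 0.73 (SE 0.054, adjusted p = 1.47e-05), and the 3 probe sets of Hspa8 alone differed by -0.03, -0.02 and 0.00.

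The other called lists that join a Snord or Snora symbol to another gene also rose with KD after RA. Over all 48 signals of a small RNA with another gene, 31 lay above 0 after RA and 17 below. Snord14a and Rps13 rose by 0.67 after RA (SE 0.068, adjusted p = 0.000134), from 8.46, 8.51 and 8.29 to 9.06, 9.12 and 9.09, while Rps13 alone, a ribosomal protein of the small subunit, differed by 0.16 to 0.21 on 3 probe sets. Snord68 and Rpl13 rose by 0.47, from 8.11, 8.1 and 8.3 to 8.81, 8.51 and 8.62, and Rpl13 alone differed by -0.07 to 0.01 on 9 probe sets. Snora28 and Eif5, the latter a translation initiation factor, rose by 0.48, beside 0.13 for Eif5 alone. Snora24 and Snhg8, a snoRNA and its non-coding host, rose by 0.73 (SE 0.19, adjusted p = 0.0255).

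Among the lists printed with their microRNA above, Mir29c and A330023F24Rik rose after RA by 0.55 (SE 0.093, adjusted p = 0.00287), from 5.45, 5.27 and 5.34 to 6.08, 5.84 and 5.77, beside 0.24 for A330023F24Rik alone. Mir703, Eef1a1 and D630045J12Rik rose by 0.44 in proliferating KD cells and by 0.70 after RA. Eef1a1, a translation elongation factor, differed by 0.08 and 0.11 alone, and D630045J12Rik by -0.20 and -0.25. In RefSeq Mir703 lies inside another gene, Cfap299, which differed by -0.1 and -0.14 on its own probe set. Mir682 and Rpl37a fell after RA by 0.39 to 0.42 on 3 probe sets, and Rpl37a alone fell by 0.42. There the single gene and the shared signal moved together. Rdm1 and Rnu2-10, a recombination factor and a U2 spliceosomal RNA, rose by 0.40 to 0.43 on 7 probe sets, and Rdm1 alone differed by 0.16.

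**Figure D3:**
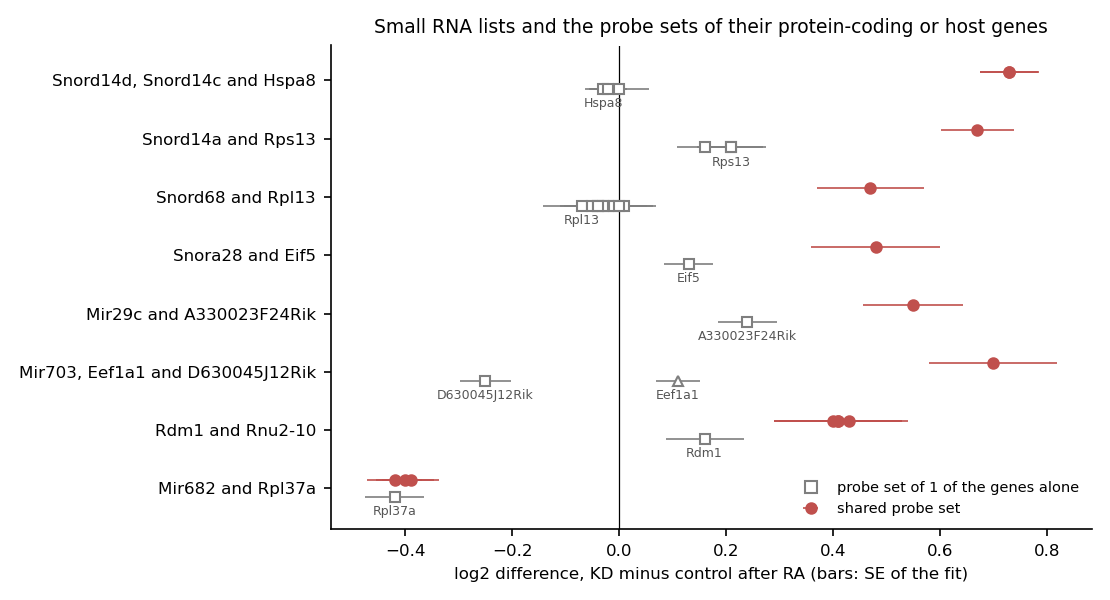
Log2 difference between KD and control cells after RA for shared probe sets of small RNAs (red circles) and for probe sets of 1 of the other genes alone (grey, open), with the SE of the limma fit as bars; all 12 arrays. The shared values lay to the right of the single-gene values in 7 of the 8 lists, for example 0.73 against -0.03 to 0.00 for Snord14d, Snord14c and Hspa8, and close to it for Mir682 and Rpl37a.

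The strongest response to RA came from an ampliconic family of the X chromosome. Slx and its copies are expressed in spermatids and are present in many near-identical copies. The list of Gm4297, Gm10230, Gm14632 and 14 others, which includes Slx, gave identical values on 5 probe sets: 6.43, 6.76 and 6.76 in control cells and 8.74, 8.73 and 8.79 after RA. In KD cells it read 6.52, 6.59 and 6.74, and 8.36, 8.25 and 7.94 after RA. All RA arrays lay above all proliferating arrays, and the KD arrays after RA lay below the control arrays after RA.

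RA raised this signal by 4.3-fold in control cells (log2 difference 2.1, SE 0.12, adjusted p = 2.08e-06) and by 2.96-fold in KD cells (log2 difference 1.56, SE 0.12, adjusted p = 1.4e-05). KD lowered it after RA by 0.57 (SE 0.12, adjusted p = 0.00784) and the difference in proliferating cells was -0.03. The interaction of -0.54 did not pass (adjusted p = 0.182). A further pair of probe sets with the same number of symbols rose with RA by 1.57 and 1.61 in control cells and by 1.32 and 1.04 in KD cells. The promoters on the list, of which 15 of 17 were in RefSeq, had a median identity of 99.3%. Over the whole class, 8 members were called higher and 0 lower with RA in control cells (4 signals), where 2.02% of all probe sets were called higher, and 7 higher and 0 lower in KD cells (3 signals), where 2.93% were. These calls came from Slx lists.

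Some histone lists, all of H2b genes, rose with RA in control cells. Of 46 members, 5 were called higher and 0 lower, where 2.02% of all probe sets were called higher, and 41 were not called. The class median was 0.151, while in KD cells 0 were called and the median was -0.0209. H2b genes encode a core protein of the nucleosome. H4bc24, H2bc23, H2bc22 and 11 others read 11.82, 11.83 and 11.86 in control cells and 12.41, 12.28 and 12.24 after RA, against 11.92, 12.07 and 12.06 and then 12.3, 12.18 and 12.18 in KD cells. The difference was 0.47 in control cells (SE 0.059, adjusted p = 0.000474) and 0.21 in KD cells, without overlap of the arrays in either. None of the 46 histone members passed the test of the interaction.

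The H2b genes with a probe set of their own did not share 1 direction. H2bc9 alone rose by 0.48 with RA in control cells, and H2bc14 and H2bc3 differed by 0.38 and 0.37. H2bc4 fell by 0.56 (adjusted p = 0.0011). The shared lists and H2bc4 are the only case in which a called shared probe set and a called single-gene probe set went opposite ways, in 5 pairs. H4c17 and H4c11 rose instead with KD in proliferating cells, by 0.6 (SE 0.1, adjusted p = 0.00284), from 6.74, 6.96 and 6.94 to 7.39, 7.37 and 7.7, and the difference after RA was 0.04.

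Several lists fell with RA, where 1.92% of all probe sets were called lower in control cells and 1.81% in KD cells. Predicted loci gave 6 lower calls in each kind of cell. Gm21119, Gm3643, Gm15319 and 2 others read 7.21, 7.1 and 7.1 in control cells and 6.58, 6.39 and 6.11 after RA, a fall of 0.78 (SE 0.12, adjusted p = 0.0016). In KD cells the fall was 0.6 (SE 0.12, adjusted p = 0.00638), from 7.21, 7.18 and 6.95 to 6.57, 6.62 and 6.36. These loci, on 1 of the lists with a further symbol, made up all 6 calls in both kinds of cell. Wdr77 and Ovgp1, a subunit of the PRMT5 methylosome and an oviduct glycoprotein, fell by 0.95 in control cells (SE 0.09, adjusted p = 6.84e-05), from 8.42, 8.32 and 8.52 to 7.48, 7.59 and 7.32.

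In KD cells Wdr77 and Ovgp1 fell by 0.67 (SE 0.09, adjusted p = 0.00068), from 8.95, 8.81 and 8.75 to 8.02, 8.2 and 8.27, and KD raised it by 0.42 in proliferating cells and by 0.7 after RA. Wdr77 alone gave 0.07 and 0.12 with RA, and was not called. Gm2011 and Abhd18 fell by 0.75 in control cells (SE 0.07, adjusted p = 6.15e-05), and Abhd18 alone fell by 0.69. Gm21451 and Loxl2, the latter a lysyl oxidase that crosslinks collagen, fell with RA by 0.52 in control cells (SE 0.077, adjusted p = 0.00134) and rose with KD by 0.57 and 0.92.

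**Figure D4:**
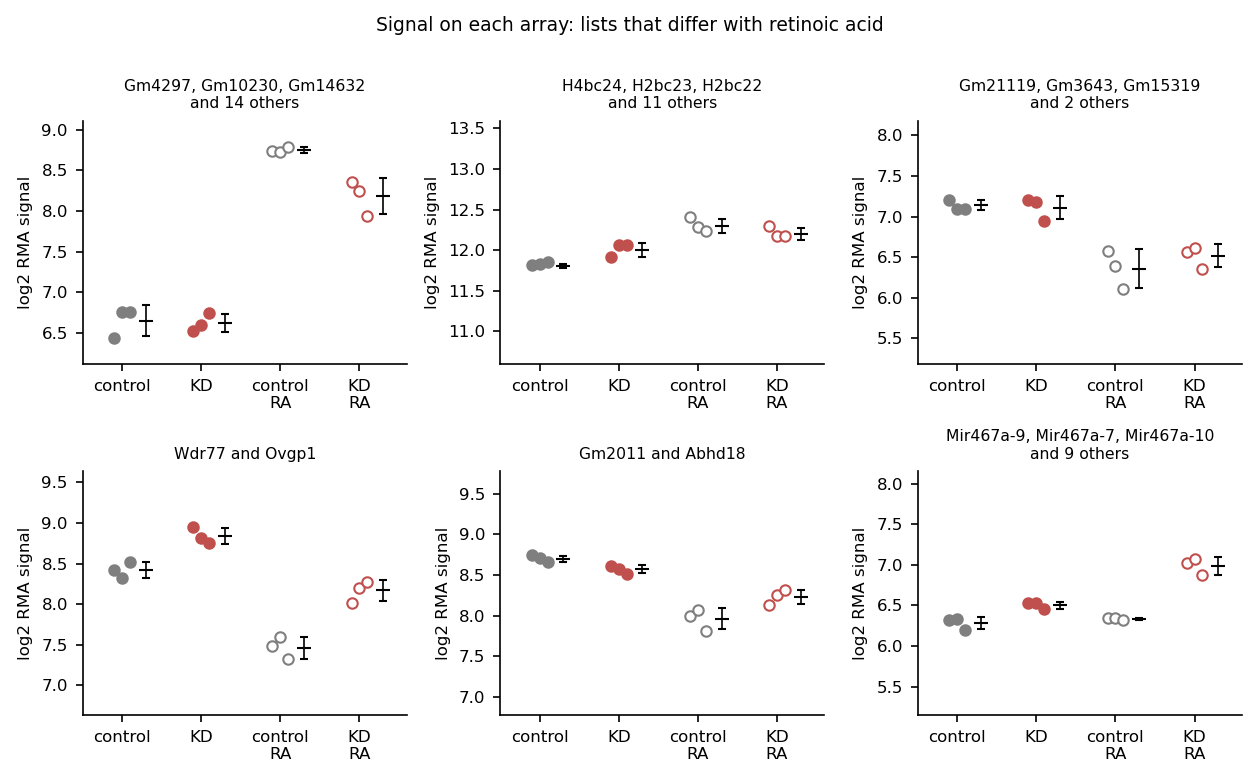
Log2 RMA signal on each of the 12 arrays for 6 shared probe sets called in a comparison of RA (grey, control; red, KD; filled, proliferating; open, after RA), with the group mean and SD (n = 3) beside the points. The Gm4297 list rose from 6.43 to 6.76 in control cells to 8.73 to 8.79 after RA, and the Mir467a list was highest in KD cells after RA, at 6.87 to 7.07.

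Ribosomal protein lists, among the most numerous, hardly passed the threshold. Of 149 members, 1 was called, Gm4832 and Rps24. It fell by 0.38 with RA in control cells (SE 0.072, adjusted p = 0.00593), from 10.68, 10.64 and 10.6 to 10.35, 10.1 and 10.31. In that comparison 1.92% of all probe sets were called lower, against 0.671% of this class. The class had 0 calls there without control replicate 1, and 2 without control replicate 1 after RA. The class as a whole leaned lower with RA, with a median of -0.0891 in control and -0.0774 in KD cells, and 107 and 127 of 147 signals below 0. Those medians were smaller than the fold threshold of 0.379 on the log2 scale, and no test was made on them.

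Receptor families of the nose gave few calls, though the vomeronasal share with RA in control cells lay above that of all probe sets. Of 98 olfactory receptor members, 2 were called higher in KD cells in each state, both from the cluster around Olfr1335 and Olfr1328, where 2.07% of all probe sets were called higher in proliferating cells and 3.58% after RA. The share of olfactory members was no larger than that. Without control replicate 3, 0 were called in proliferating cells, and without control replicate 3 after RA, 1 was called after RA. Olfr1335, Olfr1328, Olfr1330 and 5 others read 6.91, 7.02 and 6.88 against 7.36, 7.29 and 7.33 in proliferating cells, a rise of 0.39 (SE 0.092, adjusted p = 0.0203), and rose by 0.46 after RA. Of 66 vomeronasal members, 3 (4.55%) were called lower with RA in control cells, where 1.92% of all probe sets were. That count was 2 to 4 on leaving out any 1 array. The other comparisons of 2 groups gave 0 calls in this family. With RA in control cells, Vmn2r51, Vmn2r36, Vmn2r34 and 9 others went from 5.93, 5.93 and 5.98 to 5.4, 5.5 and 5.46, by -0.49 (SE 0.05, adjusted p = 9.99e-05). Members for MHC genes, keratins and epidermal genes, interferon and interferon-inducible genes, chemokines, defensins, cytochromes P450 and secreted rodent proteins gave no call in these comparisons, although at this number of arrays small differences would not be detectable.

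Smaller classes held single calls. Gstp1 and Gstp2, glutathione transferases, fell with KD in proliferating cells by 0.38 (SE 0.054, adjusted p = 0.00126), from 9.72, 9.8 and 9.77 to 9.29, 9.43 and 9.41. This value lay at the fold threshold, and the call was lost without control replicate 2. Tubb2a-ps2, Tubb2b and Tubb2a, beta tubulins of neurons, fell with KD after RA by 0.44 (SE 0.044, adjusted p = 0.000134), from 9.83, 9.75 and 9.8 to 9.34, 9.4 and 9.32, and Tubb2b alone fell by 0.49. Serpina1e, Serpina1d, Serpina1c and 2 others, protease inhibitors, fell by 0.47 after RA on the first of 2 called probe sets.

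Paralogues outside the families gave calls such as Tmem254b, Tmem254c and Tmem254a, whose 3 probe sets fell by 0.54 to 0.55 with KD after RA, and Gm13034, Smarca5-ps and Smarca5, a chromatin remodeller with its pseudogene, whose 3 probe sets rose by 0.44 to 0.47 in proliferating KD cells beside 0.46 for Smarca5 alone. AF357355 and Rian, from the imprinted non-coding RNA Rian, read 8.11, 7.96 and 7.93 against 7.36, 7.35 and 7.5. They fell by 0.60 (SE 0.07, adjusted p = 0.000374) and by 0.67 after RA (adjusted p = 0.000167), while Rian alone differed by -0.20 and 0.02.

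Lists of unlike genes can join quite different transcripts. ND6 and Acsm2, a mitochondrially encoded subunit of respiratory complex I and a nuclear acyl-CoA synthetase, read 9.77, 9.68 and 9.71 in control and 8.54, 8.37 and 8.65 in KD cells, a fall of 1.21 (SE 0.25, adjusted p = 0.00994). After RA the arrays overlapped, at 9.71, 9.39 and 8.95 against 8.84, 9.76 and 9.84 (difference 0.13, adjusted p = 0.774). The rise of 0.96 with RA in KD cells (adjusted p = 0.025) was lost on leaving out any 1 KD array (adjusted p from 0.0514 to 0.0907), or KD replicate 2 or 3 after RA (adjusted p of 0.0904 and 0.0865). Acsm2 alone differed by -0.13 in proliferating cells.

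Some calls were shared between the 2 states, though the same shares over all probe sets were not computed. The KD comparisons in the 2 states used different arrays but the same kinds of stable cell. The fit also took the spread of each probe set from all groups together, so the calls in the 2 states were not independent. Whether differences between clones recurred in both states was not tested. Among higher calls 12 were common, 63.2% of the 19 in proliferating cells and 22.2% of the 54 after RA, and among lower calls 24 were common, 82.8% of 29 and 51.1% of 47. No member was called in opposite directions. For RA, 9 higher calls were common to control and KD cells, 52.9% of 17 and 19.6% of 46, but these were only 5 distinct signals. Among lower calls 7 were common, 38.9% of 18 and 63.6% of 11, again with 0 opposite.

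**Figure D5:**
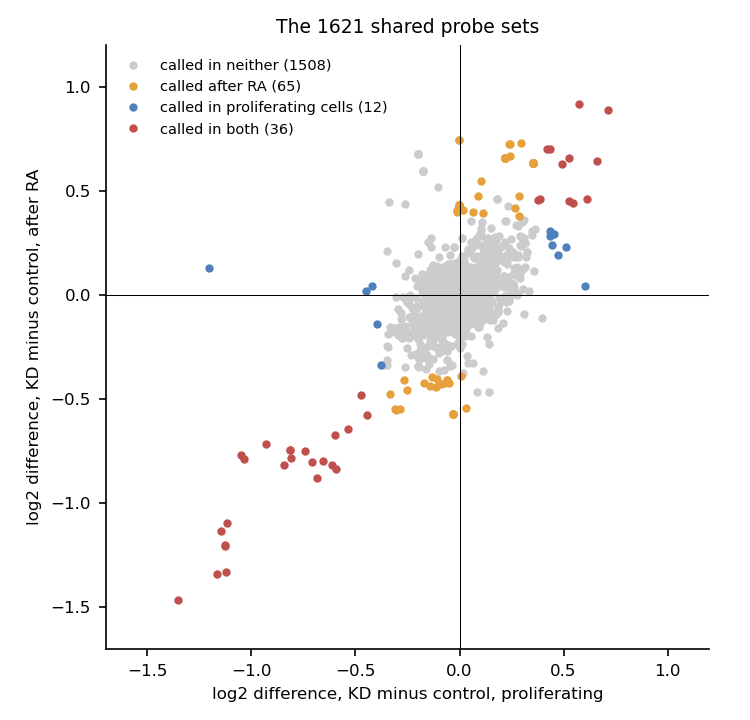
Log2 difference between KD and control cells while proliferating (horizontal) and after RA (vertical) for the 1621 shared probe sets, coloured by call. The 36 called in both states lay in the lower left or upper right, 65 were called after RA alone, 12 in proliferating cells alone and 1508 in neither.

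A shared value says little about which gene moved. In 909 members at least 1 symbol also had a probe set of its own, and 712 had none. Among called members with such a partner, an own probe set was called in the same direction for 16 of 37 in proliferating KD cells and for 22 of 48 in KD cells after RA. For the response to RA the counts were 8 of 13 in control cells and 0 of 11 in KD cells. Over 2200 pairs of a shared and a single-gene probe set, measured on the same arrays, the log2 differences correlated at r = 0.377, 0.408, 0.386 and 0.322 in these comparisons, given as a description because many pairs share a gene.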

How the data were processed

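Total RNA from 12 samples was hybridised to single-colour Affymetrix Mouse Gene 1.0 ST arrays. The authors deposited log2 signals, 1 per probe set and array, after RMA background correction, quantile normalisation and gene-level summary in R, with no versions or scan batches named. Quantile normalisation removes any change in total RNA. Groups came from the labels, and the methods call the samples biological replicates.

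Members were chosen by counting symbols in GEO's platform annotation; of 2032 gene identifiers, 2007 were found in the RefSeq tables (GRCm38.p6). The members, classes and lists were chosen with earlier results of these data known. All 35556 probe sets were fitted with limma 3.58.1 in R 4.3.3 (4 group means, eBayes, two-sided) and adjusted by Benjamini-Hochberg; SE is the fit's. The fit was tested on simulated data. The interaction subtracts the response of control cells to RA from that of KD cells. Named were, per comparison, the 5 largest called rises and falls without overlapping arrays and, per class, up to 3 called members. In the comparison that picked one of these rises or falls, the lack of overlap was set by this rule. Other called members were named after their values were seen. Alternatives covered the authors' variance filter, a filter on symbols or on signal, no fold threshold, 6 samples only, array weights, a trended robust prior, rescaling, a replicate block, leaving out each array and, chosen after seeing the data, counting identical rows once. The number of arrays limits the precision.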

Additional observations from a re-analysis of the deposited data

Results flagged for a closer look

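The interaction, which asks whether RA acted differently in KD and control cells, was called for 5 members, 3 higher and 2 lower, where 0.281% of all probe sets were called. Snord14d, Snord14c and Hspa8 had interactions of 0.49 (SE 0.076, limma adjusted p = 0.0434) and 0.48 (adjusted p = 0.044) on 2 probe sets: their RA difference was -0.20 in control cells and 0.29 and 0.28 in KD cells. Vmn2r51, Vmn2r36, Vmn2r34 and 9 others had 0.57 (SE 0.07, adjusted p = 0.0224), with -0.49 in control and 0.07 in KD cells.

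Mir24-1 and Aopep had an interaction of -0.4 (SE 0.07, adjusted p = 0.0489), reading 7.09, 6.93 and 7.09 in control cells, 7.15, 7.16 and 7.16 after RA, 7.33, 7.4 and 7.31 in KD cells and 7.09, 7.05 and 7.05 in KD cells after RA. Aopep alone, an aminopeptidase gene that hosts the microRNA, had -0.02. Gm15023, Gm7903, AV320801 and 2 others, an X-linked list that holds Pramel3, had -0.39 (SE 0.063, adjusted p = 0.044), with 4.74, 4.8 and 4.85, then 4.92, 4.93 and 4.97 after RA, against 4.82, 4.86 and 4.76, then 4.54, 4.6 and 4.57 in KD cells.

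These 5 calls were not stable. The count was 0 with a replicate block on all 12 arrays. It was also 0 without any 1 of the 6 proliferating arrays or without control replicate 3 after RA, 1 without replicate 2 of either kind of cell after RA, 3 without control replicate 1 after RA and 10 without KD replicate 3 after RA.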

How the results depend on the processing

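In the order KD in proliferating cells, KD after RA, RA in control cells and RA in KD cells, the called members numbered 27, 58, 20 and 21 among probe sets with a mean above the median, and 238, 278, 224 and 255 with no fold threshold. Counting identical rows once gave 33 for RA in KD cells. Leaving out 1 array at a time gave 44 to 60, 83 to 110, 33 to 39 and 43 to 71. For the interaction the count was 9 with a mean above the median, 15 among probe sets with a symbol, 15 with array weights, 16 with a trended robust prior and 0 to 10 without 1 array. Other scalings changed the split: 48 higher and 55 lower for KD after RA with arrays centred on their medians, and for RA in KD cells 27 and 19, or 34 and 12 after repeated quantile normalisation.

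The replicate numbers are not stated to pair samples. Same-numbered samples deviated together with r from -0.0572 to 0.152, and not every sample correlated best with its own number. A replicate block gave 47, 100, 34 and 55 called members, and 0 for the interaction. Of 94 values of named members, none reversed under an alternative; 109 of the recomputed values lost the call, 1823 kept it. The causes of these changes were not tested.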
